A study of Drosophila melanogaster with 15 samples.

Results

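The genes described here encode the extracellular matrix and the proteins that hold cells to it and to each other: laminins, collagen IV and other matrix proteins, integrins, the talin complex, cell-cell adhesion molecules, cell-surface proteoglycans with the enzymes that build their heparan sulfate, and matrix proteases. A list of 36 gene names was searched for in the deposited tables, and a row was taken where its gene name, or 1 of the names it shares the row with, was on the list and its estimation status was OK in all 15 libraries. This gave 87 rows of 33 genes, out of 10350 rows with 8444 gene names that were analysed in all. *Ilk*, *parvin* and *SPARC* matched no row and were not analysed here. Among the 33 genes, 17 have 1 row and 16 have several, up to 11 for *Fas3*. Rows of 1 gene mostly list the same start and end, so which transcript a row stands for cannot be read from the tables, and each row is called a locus and numbered by falling mean FPKM (fragments mapped to a transcript, scaled to its length and to the size of the library, a level comparable between genes). In 9 of the 87 rows the member shares its row with other genes, and such a value cannot be given to the member alone. Whether reads were assigned by strand is not given in the sources used here, so reads of overlapping genes cannot be told apart.

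Basement membranes are thin sheets of laminin, collagen IV, nidogen and perlecan that line muscles, gut, nerves and fat body. Integrins bind these sheets from the cell surface and pull on them through talin, vinculin and actin. Dystroglycan is a second receptor of the same matrix: it binds laminin and perlecan outside the cell and dystrophin inside it, and the adaptor syntrophin and the enzyme nitric oxide synthase belong to the same dystrophin glycoprotein complex (DGC).

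Pools of about 10 whole male flies, 1 week old, were sequenced from poly-A RNA with 1 library for each of 5 genotypes in each of 3 conditions. The mutants were *Dg[O55]/Dg[O86]* (labelled *Dg*), *Df(3R)Exel6184/Df(3R)Exel6184* (*Dys*), *Df(3L)BSC450/deltaSyn1[5-2]* (*Syn1*) and *Df(2L)BSC230/deltaNos15* (*Nos*), and the control was CantonS/w[1118]. Flies were unstressed (5 days at 25°C), under temperature stress (5 days at 33°C) or under metabolic stress (4 days on yeast paste with no sugar). The *Dys* flies are homozygous for a deficiency that removes other genes as well, *Syn1* and *Nos* flies carry a deficiency over the second allele, and the stocks differ from control in genetic background, so mutation and background cannot be told apart. The row of *Syn1* alone was listed at 0 in all 3 *Syn1* libraries and the rows of *Dys* alone at 0 in all 3 *Dys* libraries, whereas the *Dg* row did not fall in flies labelled *Dg* (13.6, 19.3 and 12.5, against 14.2, 13.9 and 12.9 in control), which leaves that label unchecked. *Nos* shares its expressed row with *CG6700* (23.2, 17.7 and 27.2 in *Nos* flies, against 45.4, 31.2 and 42.9 in control) and its own rows were near 0 in control as well, so the *Nos* label was checked only through that shared row. The titles of 3 unstressed mutant libraries name the control genotype, and the separate genotype label was followed. With no replicate libraries, the spread below is what the genotype and condition terms of the fit leave unexplained at a row. It is pooled over all 15 libraries and moderated by limma, so the 4 mutants share 1 standard error at a row. It is not the disagreement between the conditions of 1 genotype alone. This spread measures differences between these libraries, each a single pool.

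Summed FPKM ranged between 242249 and 347097 (median 273039), and the libraries' relative depth, read from the smallest steps between values, differed up to 1.41-fold. The absolute depth is unknown. Muscle markers, some in rows shared with other genes, had a summed FPKM of 279 to 492 in *Dys* libraries and 534 to 839.7 in control, with 4 of 6 rows called lower. Testis markers (2 of 5 genes with a row) had 1478 to 1829 in *Dys* and 963 to 1247 in control, with 3 of 3 rows called higher. Accessory gland markers had 205 to 477.5 in *Nos* and 252.9 to 521 in *Dg*-labelled libraries, against 393 to 1930 in control. Of their 2 rows, 2 were called lower in *Nos*, and 1 each in *Dg*-labelled flies, in *Dys* and under temperature stress. The part of these markers in the results was not tested, and in whole-fly RNA fewer cells of a type and less RNA per cell cannot be told apart.

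All values below are FPKM, and 3 values of a genotype stand in the order unstressed, temperature stress, metabolic stress. Log2 ratios are differences of log2(FPKM + 1), averaged over the 3 conditions for a genotype and over the 5 genotypes for a stress, and the value after ± is the standard error from limma. The added 1 shrinks the ratios of low rows. A row was called changed at an adjusted p under 0.1 (Benjamini-Hochberg over all 10350 rows, two-sided).

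In the libraries labelled *Dg*, 26 of the 87 rows were called against control (29.9%, where 24.6% of all rows were called), 13 higher and 13 lower, against 12.4% of all rows higher and 12.3% lower. In *Dys* mutants 40 rows were called (46%, against 42.0% of all rows), 18 higher and 22 lower, against 20.3% of all rows higher and 21.6% lower. *Syn1* mutants had 12 called rows (13.8%, against 10.6% of all rows), 7 higher and 5 lower, against 4.95% of all rows higher and 5.7% lower. *Nos* mutants had 16 (18.4%, against 10.3% of all rows), 5 higher and 11 lower, against 4.24% of all rows higher and 6.1% lower. In *Dg*-labelled, *Dys* and *Syn1* flies these shares lie near those of all rows, so the counts of this test alone do not set these genes apart. In *Nos* the share was higher than that of all rows. A stricter test of whether a change exceeded 2-fold (unadjusted p under 0.1) called 4 of the 87 rows in *Dg*-labelled flies, 11 in *Dys*, 6 in *Syn1* and 8 in *Nos*. Over all rows it called 2.57%, 3.87%, 1.86% and 1.95% in the same order, a smaller share in each mutant. Rows of 1 gene are not independent of each other, and the differences in share were not tested. The median log2 ratio over the 87 rows was 0.00 in *Dg*-labelled, -0.08 in *Dys*, -0.06 in *Syn1* and -0.08 in *Nos* flies, where the medians over all rows lay between -0.02 and 0.00. Calls ran in both directions, and 32 rows were called in 1 mutant, 7 in 2, 8 in 3 and 6 in all 4. The matching numbers over all rows were not worked out, so this sharing is not read as a trait of these genes. When each condition was left out in turn, 6 of the 26 *Dg* rows, 16 of the 40 *Dys* rows, 8 of the 12 *Syn1* rows and 8 of the 16 *Nos* rows kept their call each time. The fewest calls came without the unstressed libraries, with 6 in *Dg*-labelled, 21 in *Dys* and 8 in *Nos* flies. Fits that leave out a condition have 4 residual degrees of freedom in place of 8. Their median residual SD over all rows was 0.216 without the unstressed, 0.165 without the temperature and 0.167 without the metabolic libraries. How many of all rows kept their call was not worked out, so a lost call is not read as a trait of these genes.

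**Figure D1:**
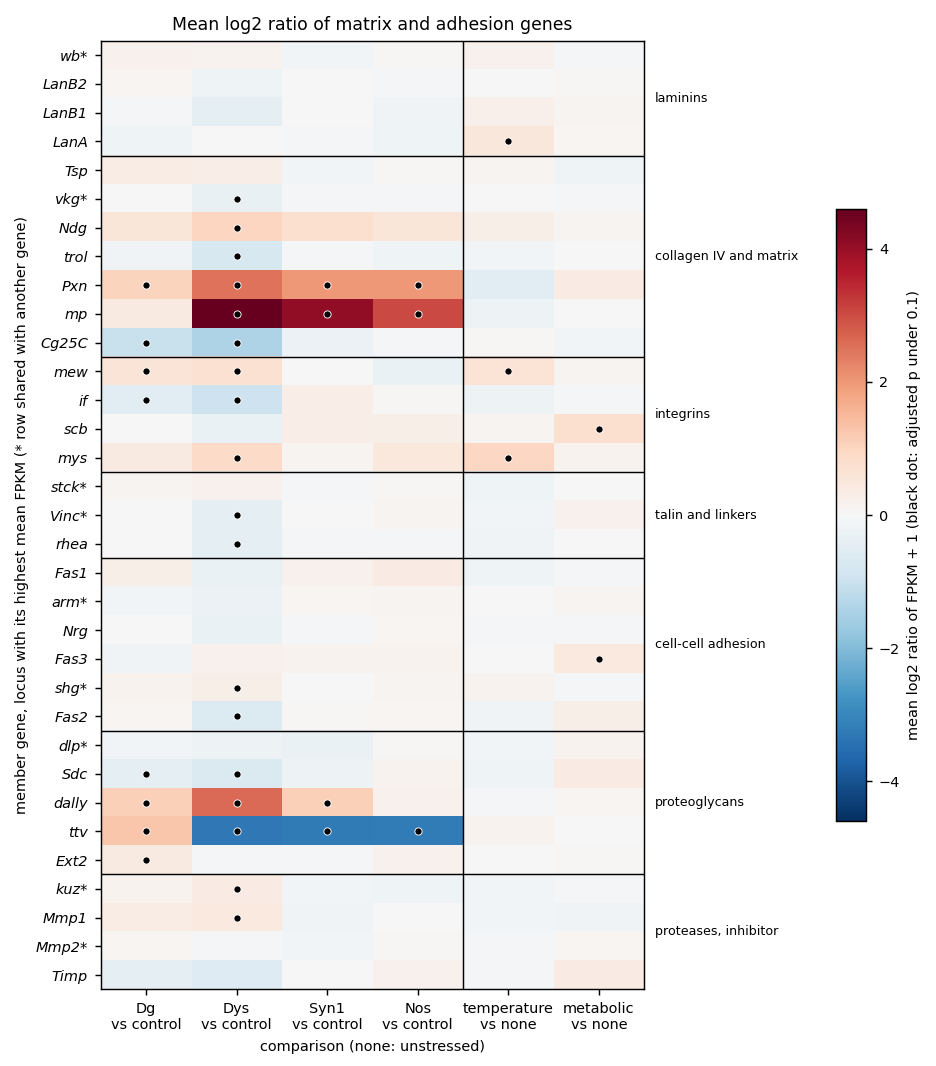
Mean log2 ratio of FPKM + 1 (colour, red higher and blue lower in the mutant or stressed libraries) for the locus with the highest mean FPKM of each of the 33 genes, in rows by role, against the 6 comparisons in columns; black dots mark rows called at an adjusted p under 0.1. The *Dys* column holds 18 dots and the *Nos* column 3, and the deepest colours are those of *mp* (log2 ratio 4.59 in *Dys*) and *ttv* (-3.28 in *Dys*).

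Laminins are trimers of an α, a β and a γ chain, and their levels were near control in most mutants. *LanB1*, the β chain, had 2.77, 2.69 and 3.64 in *Dg*-labelled, 1.7, 2.25 and 2.37 in *Dys*, 2.78, 5.06 and 2.35 in *Syn1* flies and 2.49, 3.43 and 2.57 in *Nos* flies, against 3.2, 2.79 and 3.72 in control. Its lowest value was that of unstressed *Dys* flies and its highest that of heat-stressed *Syn1* flies, and it was not called in any mutant (log2 ratio in *Dys* -0.45 ± 0.20, adjusted p = 0.102). *LanB2*, the γ chain, ranged between 2.46 in unstressed *Dys* flies and 4.4 in metabolically stressed *Dg*-labelled flies, and was likewise not called in any mutant. *LanA*, an α chain, has 1 row at 3L:6209017-6210555 (build not stated), which spans 1539 bases and stayed under 1 FPKM in every library. The other α chain, *wb*, has 9 rows. Its first is shared with *CG33090* and held 24.1, 27.8 and 24.2 in *Dg*-labelled flies, 23.2, 27.8 and 22.5 in *Dys*, 19.3, 20.6 and 20.5 in *Syn1* flies and 23.8, 23.2 and 21.9 in *Nos*, against 19.8, 28.8 and 18.1 in control, with overlapping ranges and no call. The others lie apart along chromosome 2L and averaged under 1 FPKM. Of these, *wb* locus 8 had 1.05, 0.521 and 0.947 in *Syn1* flies and 1.18, 0.875 and 1.33 in *Nos* mutants, against 0.0137, 0.0143 and 0.0579 in control, and rose in both (log2 ratio 0.83 ± 0.10 in *Syn1* flies and 1.04 ± 0.10 in *Nos*, adjusted p = 0.000608 and 0.000196). Every library of these 2 mutants lay above every control library. *wb* locus 5 fell in 3 mutants, with 0.078, 0.745 and 0.389 in *Dg*-labelled, 0, 0.154 and 0 in *Syn1* flies and 0.0663, 0.37 and 0.261 in *Nos* flies, against 1.27, 1.16 and 0.529 in control, but kept no call without the unstressed libraries (adjusted p up to 0.559). In *Dg*-labelled and *Nos* flies its call was also lost without either of the other conditions, and in *Syn1* flies without the temperature libraries. *wb* locus 2 rose in *Dys* mutants, with 2.13, 1.43 and 1.04 in *Dys* and 0.569, 0.395 and 0.225 in control (adjusted p = 0.00352), and *wb* locus 7 rose in *Dg*-labelled flies (log2 ratio 0.42 ± 0.15, not called without the unstressed or the temperature libraries, adjusted p up to 0.375). In all, 2 of the 12 laminin rows were called in *Dg*-labelled flies (16.7%, beside 24.6% of all rows) and 1 in *Dys* (8.33%, beside 42.0%). In *Syn1* and *Nos* flies 2 of the 12 were called in each, beside 10.6% and 10.3% of all rows.

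Collagen IV, the network-forming collagen of basement membranes, is built from the chains encoded by *Cg25C* (now *Col4a1*) and *vkg*, which lie side by side on chromosome 2L. *Cg25C* had 5.96, 4.03 and 7.51 in *Dg*-labelled flies and 4.89, 4.51 and 3.02 in *Dys* mutants, against 11.3, 10.9 and 15.6 in control. All 6 of these mutant libraries lay below the lowest control library. *Cg25C* fell in both, with a log2 ratio of -1.41 ± 0.32 in *Dys* (adjusted p = 0.00897, and at most 0.0976 when a condition was left out) and -1.01 ± 0.32 in *Dg*-labelled flies (adjusted p = 0.0555, not called without the unstressed libraries, adjusted p up to 0.326). *Syn1* mutants had 8.99, 18.1 and 6.43 and *Nos* mutants 12.8, 11.7 and 10.3, which overlap the control values, and neither was called. The difference between mutants passed the test too: *Cg25C* was lower in *Dys* than in *Nos* flies (log2 ratio -1.31 ± 0.32, adjusted p = 0.0105) and than in *Syn1* flies (-1.15 ± 0.32, adjusted p = 0.0239). *vkg* locus 1 shares its row with *Rtnl1* and had 24.2, 26.8 and 22.4 in *Dys* mutants, against 31.6, 27.9 and 33.8 in control, a smaller fall (log2 ratio -0.33 ± 0.12, adjusted p = 0.0565, not called without the unstressed or the metabolic libraries, adjusted p up to 0.306). Collagen IV is made in hemocytes and fat body. The 2 of 6 fat body markers with a row (*Fbp1* and the row shared by *Rfabg* and *Zyx*) summed to 17.8 to 28.9 FPKM in *Dg*-labelled and 4.73 to 36.2 in *Dys* libraries, against 40.6 to 64.5 in control. They summed to 31 to 58.1 in *Syn1* and 21.7 to 72.3 in *Nos* libraries, and *Fbp1* stayed under 1 FPKM in every library. The 6 rows of 4 of 6 hemocyte markers summed to 13.7 to 31.3 in *Dg*-labelled and 9.24 to 23.8 in *Dys* libraries, against 13 to 31.3 in control. In *Syn1* and *Nos* libraries they summed to 21.5 to 29.9 and 23.3 to 29.2. Of these rows 1 was called lower in *Dys* and 2 higher in *Syn1*. Their part in the *Cg25C* values was not tested.

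A second row of the *vkg* span, *vkg* locus 2, told the genotypes apart in another way. It had 3.29, 2.63 and 3.69 in *Syn1* flies and 3.09, 2.83 and 3.57 in *Nos* mutants, 0.0438, 0.042 and 0 in *Dg*-labelled and 0.0467, 0.105 and 0.0458 in *Dys* flies, against 0.444, 0.405 and 0.198 in control. It rose in *Syn1* (log2 ratio 1.64 ± 0.12, adjusted p = 1.49e-05) and in *Nos* (1.63 ± 0.12, adjusted p = 2.33e-05), in every library above control. In *Dg*-labelled and *Dys* flies it was called lower, from a control level already under 1 FPKM (log2 ratio -0.39 ± 0.12 and -0.34 ± 0.12), and in both the call was lost without the unstressed or the temperature libraries (adjusted p up to 0.415 in *Dg*-labelled and 0.373 in *Dys* flies). The row was thus high in *Syn1* and *Nos*, low in control and near 0 in *Dg*-labelled and *Dys* flies. *vkg* loci 3 and 4 stayed under 1 FPKM with no call in a mutant.

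Perlecan, the large heparan sulfate proteoglycan of basement membranes, is encoded by *trol*, which has 3 rows over X:2364359-2384217 and 2 minor rows further along the X. *trol* locus 1 had 9.8, 9.31 and 9.33 in *Dys* mutants, against 18.3, 11.3 and 20.9 in control, and locus 2 had 4.22, 3.15 and 2.11, against 7.46, 4.62 and 7.26. Every *Dys* library was below every control library at both rows, and both fell (log2 ratio -0.73 ± 0.20 at locus 1, not called without the unstressed or the metabolic libraries, adjusted p up to 0.217, and -0.85 ± 0.26 at locus 2, not called without the unstressed or the metabolic libraries, adjusted p up to 0.286). At *trol* locus 3 the fall was in *Dg*-labelled and *Nos* flies instead, with 2.77, 3.64 and 2.93 in *Dg*-labelled and 2.5, 1.48 and 2.31 in *Nos* flies, against 7.26, 6.01 and 7.82 in control (log2 ratio -0.97 ± 0.17 and -1.38 ± 0.17, adjusted p = 0.00461 and 0.000955). Locus 3 was called higher in *Dys* than in *Nos* (adjusted p = 0.0016). With all *trol* rows summed, *Dys* held 22, 17.7 and 17.2, against 33.6, 23.5 and 37 in control (log2 ratio -0.68 ± 0.17, adjusted p = 0.0151), and *Nos* held 20.7, 21.7 and 18.5 (log2 ratio -0.58 ± 0.17, adjusted p = 0.088).

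Nidogen, which bridges the laminin and collagen IV networks, was higher in *Dys* mutants. *Ndg* had 17.2, 17.8 and 17.9 in *Dg*-labelled, 13.7, 30.1 and 32.8 in *Dys*, 21.5, 21.3 and 17.2 in *Syn1* flies and 17.3, 18.9 and 16.4 in *Nos* flies, against 11.8, 13.3 and 9.82 in control. All 12 mutant libraries lay above the highest control library. Only the *Dys* difference was called (log2 ratio 0.99 ± 0.24, adjusted p = 0.0121, not called without the temperature or the metabolic libraries, adjusted p up to 0.141), where both stressed libraries held over 30 FPKM and the unstressed library less than those of the other mutants. The log2 ratio was 0.57 ± 0.24 in *Dg*-labelled, 0.74 ± 0.24 in *Syn1* flies and 0.56 ± 0.24 in *Nos* flies, with adjusted p = 0.128, 0.101 and 0.218. *Tsp*, the thrombospondin that integrins bind at muscle ends, ranged from 44.2 to 84.3 FPKM and was called in no mutant.

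**Figure D2:**
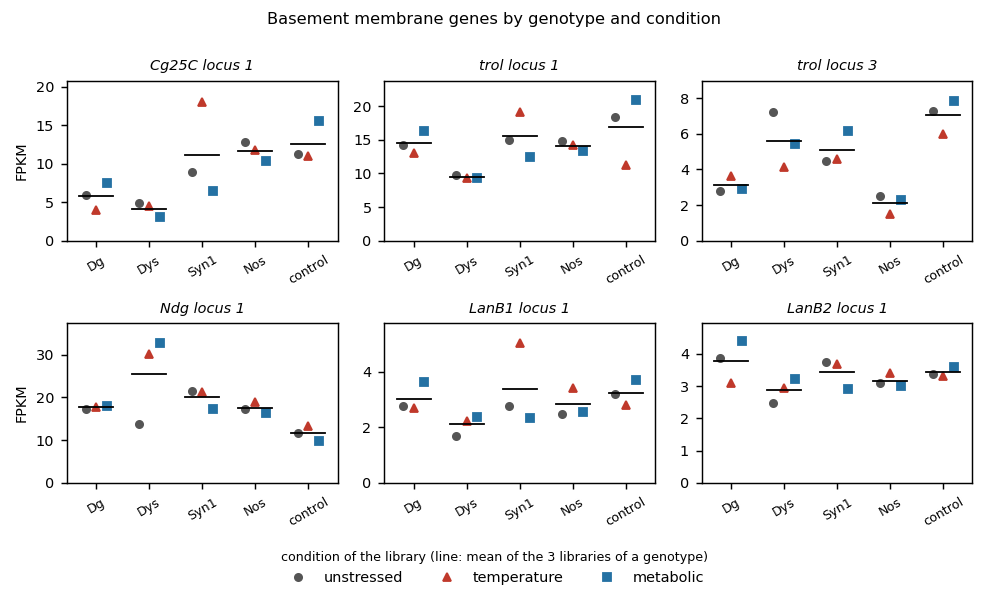
FPKM (y axis, from 0) of 6 basement membrane rows by genotype (x axis); each symbol is 1 library, with its shape and colour giving the condition, and the black line is the mean of the 3 libraries. *Cg25C* in *Dg*-labelled and *Dys* libraries lies at or under 7.51 FPKM, with control at 10.9 or more, and every mutant library of *Ndg* lies above the highest control value of 13.3.

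*mp* encodes multiplexin, the fly collagen XV/XVIII, and its 2 rows have different positions. *mp* locus 1, at 3L:7026837-7046718, had 26, 22.4 and 27.8 in *Dys*, 18.8, 11.7 and 24.1 in *Syn1*, 8.49, 6.27 and 9.26 in *Nos* and 0.307, 0.734 and 0.306 in *Dg*-labelled flies, against 0.293, 0 and 0 in control. It was thus near 0 in control and *Dg*-labelled libraries and expressed in all 9 others. *Dys* was highest, then *Syn1*, then *Nos* in each condition, and the test separated *Dys* from *Nos* (log2 ratio 1.56 ± 0.22, adjusted p = 0.000762) and *Syn1* from *Nos* (1.05 ± 0.22, adjusted p = 0.0209). *mp* locus 2, at 3L:6991963-7006620, had 9.84, 5.33 and 8.63 in *Dys*, 13.4, 12 and 11.7 in *Syn1*, 12, 8.53 and 14 in *Nos* and 8.95, 9.85 and 9.92 in *Dg*-labelled flies, against 9.38, 8.79 and 8.46 in control, and was called in none of them. The genotype difference at *mp* was therefore in 1 of its rows.

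Peroxidasin, the matrix enzyme that cross-links collagen IV, showed a similar split between rows. *Pxn* locus 1 had 5.64, 6.06 and 9.2 in *Dg*-labelled, 13.8, 18.9 and 32.6 in *Dys*, 17.5, 10.0 and 16.4 in *Syn1* flies and 14.8, 11.1 and 17 in *Nos* flies, against 5.14, 0.524 and 4.92 in control, and was called higher in all 4 (adjusted p = 0.0772, 0.00096, 0.00649 and 0.0085). All 12 mutant libraries lay above control, though the *Dg*-labelled difference was called in no fit that left out a condition, adjusted p up to 0.375. *Pxn* locus 2, with the same start and end, had 30.5, 24.2 and 22.4 in *Dg*-labelled, 2.62, 4.67 and 2.9 in *Dys*, 2.15, 4.66 and 1.95 in *Syn1* flies and 2.68, 4.13 and 3.28 in *Nos* flies, against 11.9, 25.4 and 10.8 in control. It fell in *Dys*, *Syn1* and *Nos* (with log2 ratios of -1.88 ± 0.22, -2.09 ± 0.22 and -1.88 ± 0.22), and rose in *Dg*-labelled flies (0.74 ± 0.22, not called without the unstressed or the metabolic libraries, adjusted p up to 0.458). Summed over its 4 rows, *Pxn* held 18.9, 26.9 and 38.8 in *Dys*, 22.4, 18.3 and 20.7 in *Syn1* flies and 20.6, 17.8 and 23.3 in *Nos* mutants, against 19.7, 28.8 and 20.8 in control, with no call in these 3 (adjusted p = 0.409, 0.802 and 0.77). The sum in *Dg*-labelled flies, 38, 33 and 34.8, was called higher (log2 ratio 0.61 ± 0.22, adjusted p = 0.0836). *Pxn* locus 3, at 1.52 to 4.92 FPKM, was called in no mutant, and *Pxn* locus 4, under 1 FPKM, only in *Dg*-labelled flies (not called without the unstressed or the metabolic libraries, adjusted p up to 0.206). In *Syn1* and *Nos* the rise at 1 row and the fall at the other thus largely offset each other in the sum. In *Dys* they did so in the unstressed and heated libraries, while the metabolic library held 38.8, against 20.8 in control.

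**Figure D3:**
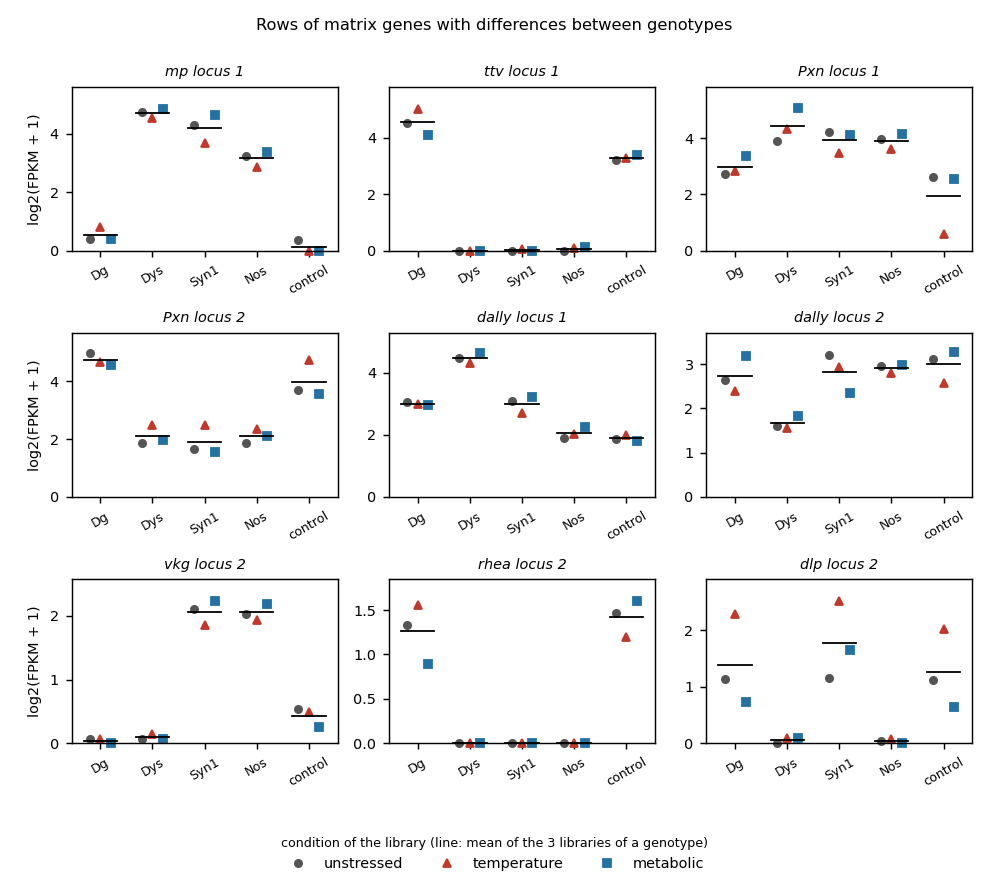
log2(FPKM + 1) (y axis, from 0) of 9 rows by genotype (x axis); each symbol is 1 library of the condition in the legend, and the black line is the mean of 3. *mp* locus 1 and *ttv* locus 1 are near 0 in complementary sets of genotypes (*mp* locus 1 in *Dg*-labelled and control flies, *ttv* locus 1 in *Dys*, *Syn1* and *Nos* flies), and *rhea* locus 2 is at 0 in all *Dys*, *Syn1* and *Nos* libraries.

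Integrins pair the β subunit encoded by *mys* with an α subunit, and the subunits did not move together. *mew*, the laminin-binding α subunit, had 25.2, 32.1 and 19.7 in *Dg*-labelled and 21.4, 35.7 and 25.6 in *Dys* flies, against 13.8, 23.6 and 13 in control. It rose in both (log2 ratio 0.60 ± 0.15, adjusted p = 0.0245, not called without the unstressed libraries, adjusted p up to 0.298, and 0.70 ± 0.15, adjusted p = 0.00764), although heat-stressed control flies exceeded some mutant libraries. *if*, the α subunit of muscle attachments, had 9.54, 7.99 and 11.1 in *Dg*-labelled and 7.95, 6.63 and 5.58 in *Dys* flies, against 14.5, 10.6 and 17.4 in control, and fell in both. Its log2 ratio was -0.96 ± 0.17 in *Dys* (adjusted p = 0.00246) and -0.51 ± 0.17 in *Dg*-labelled flies (adjusted p = 0.0606, not called without the unstressed or the temperature libraries, adjusted p up to 0.382), and every *Dys* library was below every control library. *Syn1* and *Nos* flies had 21, 15.7 and 16.5 and 14.7, 15 and 13.5 for *if*, and 12.7, 19 and 17.4 and 9.73, 16.9 and 13.5 for *mew*, with no call at either. *Dys* differed from *Nos* at both genes (log2 ratio -1.01 ± 0.17 for *if* and 0.99 ± 0.15 for *mew*, adjusted p = 0.00192 and 0.00134). *mys* itself had 4.61, 14.4 and 8.2 in *Dys* mutants, against 3.1, 7.73 and 2.57 in control, and was called higher (log2 ratio 0.88 ± 0.29, not called without the temperature or the metabolic libraries, adjusted p up to 0.215). *scb*, the α subunit known from synapses and dorsal closure, was called in no mutant, with log2 ratios between -0.31 in *Dys* and 0.27 in *Nos*. The minor rows *if* locus 2 and *mew* locus 2 averaged under 1 FPKM, and *if* locus 2 was called higher in *Syn1* but under no fit that left out a condition.

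Talin, encoded by *rhea*, ties the integrin tail to actin. *rhea* locus 1 had 14.8, 14 and 14.4 in *Dys* mutants, against 20.0, 17.1 and 22 in control, and fell by a small amount (log2 ratio -0.42 ± 0.12, adjusted p = 0.0204, not called without the unstressed libraries, adjusted p up to 0.184). *rhea* locus 2, with the same start and end, was listed at 0 in all 9 libraries of *Dys*, *Syn1* and *Nos*, and had 1.52, 1.95 and 0.863 in *Dg*-labelled flies, against 1.76, 1.3 and 2.03 in control. It was called lower in all 3 (adjusted p = 0.000153, 0.000268 and 0.000392), while the main row was not called in *Syn1* or *Nos* (log2 ratio -0.10 ± 0.12 and -0.09 ± 0.12). Vinculin, which strengthens the talin link, also had lower values in *Dys*: *Vinc* locus 2, the row of *Vinc* alone, held 1.7, 1.78 and 1.39 in *Dys*, against 1.95, 4.72 and 2.01 in control (log2 ratio -0.50 ± 0.19, adjusted p = 0.0624), and *Vinc* locus 1, shared with *CG18031*, *Cyp4d14* and *Nmd3*, held 20.0, 15.1 and 23, against 23.7, 22.5 and 31.4. Neither kept its call when any of the 3 conditions was left out. *stck*, which encodes the adaptor PINCH and shares its row with *DppIII*, ranged from 78.6 to 127 and was called in no mutant. Of the 5 rows of the talin complex 4 were called in *Dys*, all lower, beside 21.6% of all rows called lower there. In *Dg*-labelled flies 0 of the 5 were called, beside 24.6% of all rows, and limma gave 0 with an unadjusted p under 0.05 as well.

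**Figure D4:**
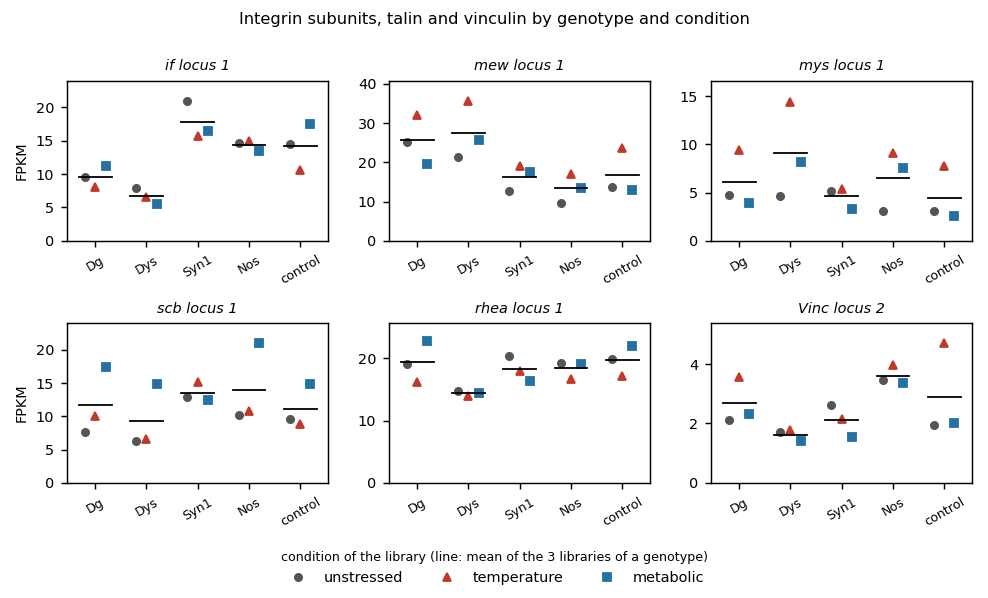
FPKM (y axis, from 0) of the 4 integrin subunits, talin (*rhea* locus 1) and vinculin (*Vinc* locus 2) by genotype (x axis); each symbol is 1 library and the black line is the mean of the 3 conditions. *if* in *Dys* mutants stays at or under 7.95 FPKM with control at 10.6 or more, and the red triangles of *mys* and *mew* (temperature stress) lie above the unstressed circles of the same genotype.

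Among the cell-cell adhesion genes, *Fas1*, *Nrg* and *arm* were called in no mutant. *Fas1*, a fasciclin of axons, ranged from 63.4 to 140.4, *Nrg*, the L1-type adhesion molecule, from 12.2 to 20.2, and *arm*, the fly β-catenin, from 47.3 to 77.2 in a row shared with *deltaCOP*. *Fas2*, the fly NCAM, had 4.38, 5.68 and 6.05 in *Dys*, against 8.29, 6.37 and 12.2 in control, every *Dys* value below every control value (log2 ratio -0.61 ± 0.24, adjusted p = 0.0722, not called without the unstressed or the metabolic libraries, adjusted p up to 0.303). *shg*, the fly E-cadherin, shares its row with *Cht12* and was called higher in *Dys* by 0.27 ± 0.11 on the log2 scale, in no fit that left out a condition. *Fas3*, a homophilic adhesion molecule of epithelia and septate junctions, has 11 rows, and its main row was called in no mutant: locus 1 had 7.78, 9.45 and 13.8 in *Dg*-labelled, 11.1, 10.2 and 19.2 in *Dys*, 12.5, 12.2 and 13.5 in *Syn1* flies and 11.1, 11.3 and 16.2 in *Nos* flies, against 11.5, 9.9 and 12.6 in control. *Fas3* locus 2 differed widely between conditions, with 3.37, 0.924 and 0.27 in *Dg*-labelled, 3.46, 0.389 and 1.37 in *Dys*, 8.29, 0.321 and 6.85 in *Syn1* flies and 5.15, 0.305 and 0.303 in *Nos* flies, against 27.1, 1.19 and 12.3 in control. It was called lower in *Dg*-labelled, *Dys* and *Nos* flies (log2 ratio -2.09 ± 0.56, -1.93 ± 0.56 and -2.10 ± 0.56), in each case not without the unstressed libraries (adjusted p up to 0.354, 0.253 and 0.417), and the control library under heat fell within the mutant range. *Fas3* locus 5 was called lower in all 4 mutants, with 0.353, 0.534 and 0.147 in *Dg*-labelled, 1.13, 0.246 and 0.278 in *Dys*, 0.518, 0.523 and 0.573 in *Syn1* flies and 0.55, 0.614 and 0.197 in *Nos* flies, against 1.91, 0.994 and 1.1 in control, where only unstressed *Dys* flies overlapped control, and none of the 4 calls held without the metabolic libraries. The other called *Fas3* rows were under 1 FPKM in mutants: locus 9 was lower in *Dg*-labelled, *Dys* and *Nos* flies, locus 6 higher in *Dys*, and locus 11, the 1 row that lies outside the span of the others, higher in *Dg*-labelled flies, and each of these calls was lost when 1 or more of the conditions was left out. *Fas3* loci 3, 4, 7, 8 and 10 were called in no mutant.

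The proteoglycans and the enzymes that build heparan sulfate had 9 of 17 rows called in *Dg*-labelled flies (52.9%, beside 24.6% of all rows), the highest share of any group there, and 11 of 17 in *Dys* (64.7%, beside 42.0%). In *Syn1* flies 2 of 17 were called (11.8%, beside 10.6% of all rows) and in *Nos* flies 3 of 17 (17.6%, beside 10.3%). *dally*, *Sdc* and *ttv* supplied all but 1 of the called rows in both *Dg*-labelled and *Dys* flies. *dally*, a glypican that shapes the reach of secreted signals, has 7 rows with 1 start and end. *dally* locus 1 had 7.23, 6.92 and 6.71 in *Dg*-labelled, 21.3, 18.6 and 24 in *Dys*, 7.45, 5.47 and 8.21 in *Syn1* flies and 2.76, 3.1 and 3.77 in *Nos* flies, against 2.63, 2.99 and 2.45 in control. It rose in the first 3, with log2 ratios of 1.11 ± 0.14, 2.59 ± 0.14 and 1.11 ± 0.14 (adjusted p = 0.000582, 8.34e-07 and 0.0006), and all 9 libraries lay above control. *dally* locus 2 went the other way in *Dys*, with 2.06, 1.95 and 2.53 in *Dys*, against 7.72, 4.97 and 8.69 in control (log2 ratio -1.33 ± 0.23, adjusted p = 0.0027). *dally* loci 4, 5, 6 and 7 were also called higher in *Dys*, locus 4 with 2.73, 2.16 and 2.53, against 0.431, 0.449 and 0.34 in control, and of these 4 calls that of locus 4 held whichever condition was left out. In *Dys* the rows did not cancel: summed *dally* held 29.6, 26.3 and 31.9, against 12.4, 10.7 and 12.7 in control (log2 ratio 1.23 ± 0.10, adjusted p = 2.82e-05). In *Syn1* mutants the sum was 18.6, 13.1 and 15.2, a much smaller rise than at locus 1 (log2 ratio 0.35 ± 0.10, adjusted p = 0.0716). *Dg*-labelled flies held 5.27, 4.24 and 8.06 at locus 2, below control in each condition. Their rise at locus 1 is therefore not read as a rise of the summed gene. *dally* locus 3 fell in *Dg*-labelled flies, which held 0.212, 0.135 and 0.0706, against 1.05, 1.07 and 0.983 in control (not called without the unstressed libraries, adjusted p up to 0.196).

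The second glypican, *dlp*, shares its main row with *CG9628*, which ranged from 18.2 to 33.8 and was called in no mutant. Its own row, *dlp* locus 2, had 0, 0.0668 and 0.0587 in *Dys* and 0.0237, 0.053 and 0 in *Nos* mutants, 1.2, 3.9 and 0.668 in *Dg*-labelled and 1.22, 4.72 and 2.15 in *Syn1* flies, against 1.17, 3.08 and 0.568 in control. It fell in *Dys* (adjusted p = 0.0138, not called without the unstressed libraries, adjusted p up to 0.116) and *Nos* (adjusted p = 0.0379, not called without the unstressed or the temperature libraries, adjusted p up to 0.308), which were near 0 in every condition, and the row was called higher in *Syn1* than in *Nos* (log2 ratio 1.74 ± 0.30, adjusted p = 0.0087). *Sdc*, the fly syndecan, had 16.4, 13.7 and 23.1 in *Dg*-labelled and 15.4, 11.1 and 17.3 in *Dys* flies at its main row, against 20.6, 19.2 and 33.1 in control, and fell in both (log2 ratio -0.42 ± 0.13, called in no fit that left out a condition, adjusted p up to 0.29, and -0.68 ± 0.13, adjusted p = 0.00414). *Sdc* locus 2 differed more from control, with 0.137, 0.175 and 0.091 in *Dg*-labelled, 0.488, 0.218 and 0.623 in *Dys* and 1.09, 0.91 and 2.04 in *Nos* flies, against 4.09, 2.09 and 4.02 in control (log2 ratio -1.92 ± 0.16, -1.58 ± 0.16 and -0.90 ± 0.16), though in *Nos* the row was not called without the unstressed libraries, adjusted p up to 0.297. *Syn1* flies held 2.75, 2.3 and 3.71 at that row, close to control and not called, and the difference of *Dg*-labelled from *Syn1* flies was called (adjusted p = 5.37e-05). *Sdc* locus 3 was called lower in *Dg*-labelled flies, with 0.363, 0.645 and 0.207, against 2.28, 1.19 and 1.82 in control (not called without the unstressed or the metabolic libraries, adjusted p up to 0.315). Summed over its 3 rows, *Sdc* fell by 0.65 on the log2 scale in *Dg*-labelled flies and by 0.73 in *Dys* (adjusted p = 0.00273 and 0.000858).

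*ttv* and *Ext2* (*sotv*) encode the polymerases that lengthen heparan sulfate chains. *ttv* locus 1, at 2R:10414009-10475432, was listed at 0 in all 3 *Dys* libraries and had 0, 0.0505 and 0 in *Syn1*, 0, 0.0676 and 0.0813 in *Nos* and 21.8, 31.3 and 16 in *Dg*-labelled flies, against 8.14, 8.58 and 9.42 in control. The row was thus near 0 in the 9 libraries in which *mp* locus 1 was high, and it rose in *Dg*-labelled flies (log2 ratio 1.26 ± 0.17, adjusted p = 0.000867, at most 0.0862 when a condition was left out). *ttv* locus 2, a separate stretch of 615 bases at 2R:10413233-10413847, had 8.9, 6.15 and 7.48 in *Dg*-labelled, 7.14, 4.77 and 5.6 in *Dys*, 7.37, 3.78 and 5.46 in *Syn1* flies and 5.73, 4.55 and 6.59 in *Nos* flies, against 5.57, 4.7 and 5.47 in control, and of these only the *Dg*-labelled values were called (log2 ratio 0.44 ± 0.12, not called without the unstressed or the metabolic libraries, adjusted p up to 0.303). *ttv* locus 3 was called higher in *Dys* (0.64 ± 0.21 on the log2 scale, not called without the unstressed or the metabolic libraries, adjusted p up to 0.201), and *ttv* locus 4 in *Dg*-labelled flies, with 0.685, 0.524 and 0.737, against 0, 0.0272 and 0.031 in control. Summed over all rows, *ttv* fell in *Dys*, *Syn1* and *Nos* (log2 ratio -0.81 ± 0.17, -0.98 ± 0.17 and -1.09 ± 0.17) and rose in *Dg*-labelled flies (1.07 ± 0.17, adjusted p = 0.00258). *Ext2* had 2.49, 2.46 and 3.06 in *Dg*-labelled flies, against 1.65, 1.66 and 1.88 in control, a rise with no overlap (log2 ratio 0.42 ± 0.10, adjusted p = 0.0153, not called without the unstressed libraries, adjusted p up to 0.226), and was called in no other mutant.

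Matrix metalloproteases cut the matrix and TIMP holds them in check. *Mmp1*, a secreted protease, had 112, 106 and 109 in *Dys* mutants, against 83.2, 96.8 and 63.8 in control, and was called higher (log2 ratio 0.44 ± 0.18, not called without the unstressed or the metabolic libraries, adjusted p up to 0.368). *Mmp2*, which is tethered to the cell surface, shares its main row with *CG1868*, *Not1* and *clos*, and that row ranged from 37.4 to 53.9 with no call. *Mmp2* locus 2, a row of *Mmp2* alone, rose in all 4 mutants, with 10.9, 5.28 and 9.66 in *Dg*-labelled, 6.41, 1.67 and 5.14 in *Dys*, 5.69, 0.998 and 5.52 in *Syn1* flies and 4.92, 0.647 and 6.59 in *Nos* flies, against 1.19, 0.268 and 1.34 in control. The log2 ratio was 2.31 ± 0.24 in *Dg*-labelled, 1.41 ± 0.24 in *Dys*, 1.25 ± 0.24 in *Syn1* flies and 1.17 ± 0.24 in *Nos* flies. In *Dg*-labelled and *Dys* flies the call held whichever condition was left out, in *Syn1* it was lost without the unstressed libraries (adjusted p = 0.295) and in *Nos* without the unstressed or the metabolic ones (up to 0.343), and heat-stressed *Syn1* and *Nos* flies overlapped control. *Dg*-labelled flies were called higher than each other mutant at this row (log2 ratio 0.90 ± 0.24 against *Dys*, 1.06 ± 0.24 against *Syn1* and 1.14 ± 0.24 against *Nos*). Summed over the rows of *Mmp2* alone, the rise was called in *Dg*-labelled (1.59 ± 0.25, adjusted p = 0.00273) and *Dys* flies (0.62 ± 0.25, adjusted p = 0.0752) and not in *Syn1* or *Nos* (adjusted p = 0.241 and 0.239). Of its rows under 1 FPKM, locus 6 was called lower in *Dg*-labelled, *Dys* and *Nos* flies and locus 5 higher in *Dg*-labelled flies, neither in every fit that left out a condition, and locus 3 was called lower in *Dys*, with 0.318, 0.0667 and 0.117, against 0.905, 0.388 and 1.37 in control (adjusted p = 0.00764). *Timp* had 23.7, 17.4 and 47 in *Dg*-labelled and 19.5, 22 and 33 in *Dys* flies, against 38.9, 28.1 and 48.2 in control, not called (adjusted p = 0.274 and 0.115), although *Dys* was called lower than *Nos* (log2 ratio -0.80 ± 0.28, adjusted p = 0.0448). *kuz*, a transmembrane protease of the ADAM family that activates Notch, shares its main row with *CG9254*, which had 272, 282 and 306 in *Dys*, against 218, 249 and 200.2 in control (log2 ratio 0.37 ± 0.16, not called without the unstressed or the metabolic libraries, adjusted p up to 0.396). *kuz* locus 4 was listed at 0 in all 3 control libraries and had 0, 1.85 and 0.672 in *Dys*, where it was called higher (not called without the temperature or the metabolic libraries, adjusted p up to 0.219). *kuz* loci 2 and 3 and *Mmp2* loci 4 and 7, all with a mean under 1 FPKM, were called in no mutant.

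Between pairs of mutants, 159 of 522 tests on the 87 rows were called. Pairs with *Dys* held the most, with 39 rows against *Syn1* (44.8%, where 41.0% of all rows were called), 36 against *Nos* (41.4%, against 44.6%) and 30 against *Dg*-labelled flies (34.5%, against 23.9%). *Dg*-labelled flies differed from *Syn1* at 26 rows (29.9%, against 28.5%) and from *Nos* at 23 (26.4%, against 26.6%). *Syn1* and *Nos* differed at 5 rows (5.75%, against 6.11%), all higher in *Syn1*, namely *Sdc* locus 2, *dally* locus 1, *trol* locus 3, *mp* locus 1 and *dlp* locus 2. *Syn1* and *Nos* flies had like values at some of the rows called against control in both. These were *vkg* locus 2, *wb* locus 8, *Pxn* loci 1 and 2, *ttv* locus 1 and *rhea* locus 2. *mp* locus 1 was called against control in both as well, but differed between them. As the 4 mutant comparisons share the 3 control libraries, agreement between them is not independent.

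Temperature stress changed 18 of the 87 rows (20.7%, against 26.1% of all rows), 12 higher and 6 lower, against 13.8% of all rows higher and 12.3% lower, with a median log2 ratio of -0.02 over the 87 rows and -0.01 over all rows. The 2-fold test called 2 of the 87, beside 0.792% of all rows. From here, 5 values stand in the order *Dg*-labelled, *Dys*, *Syn1*, *Nos*, control. The integrin β subunit *mys* had 9.41, 14.4, 5.37, 9.09 and 7.73 under temperature stress, against 4.77, 4.61, 5.17, 3.05 and 3.1 in unstressed flies. All 5 heated libraries lay above the highest unstressed one, by little in *Syn1* (log2 ratio 0.95 ± 0.22, adjusted p = 0.0163, and at most 0.0827 when a genotype was left out). Its laminin-binding partner *mew* had 32.1, 35.7, 19, 16.9 and 23.6 under temperature stress, against 25.2, 21.4, 12.7, 9.73 and 13.8 unstressed, higher in 5 of 5 genotypes (log2 ratio 0.61 ± 0.12, adjusted p = 0.00682). The α subunits *if* and *scb* were not called (log2 ratio -0.25 ± 0.13 and 0.12 ± 0.17).

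Of the 12 laminin rows, 4 were called higher under heat and 1 lower, all of them low rows, and of the 17 rows of proteoglycans and heparan sulfate enzymes 3 were called higher and 2 lower (beside 13.8% of all rows higher and 12.3% lower). *LanA* had 0.583, 0.595, 0.666, 0.396 and 0.845 in heated flies, against 0.0161, 0.172, 0.119, 0.109 and 0.169 in unstressed flies, with no overlap (log2 ratio 0.53 ± 0.08, adjusted p = 0.00256). *wb* locus 4, at 2L:14298675-14299264, had 0.922, 2.04, 1.06, 1.56 and 1.3, against 0.114, 0.243, 0.0526, 0.0482 and 0.108 unstressed (log2 ratio 1.08 ± 0.09, adjusted p = 0.000163), and *wb* locus 3 had 1.35, 2.35, 0.727, 0.64 and 0.914, against 0.123, 0.328, 0.228, 0.104 and 0.41 (log2 ratio 0.78 ± 0.13, adjusted p = 0.0043). These 3 rows did not overlap between heated and unstressed flies and kept their call whichever genotype was left out. *wb* locus 5 was called higher and *wb* locus 2 lower, both in some of these fits only. The main rows *LanB1* and *LanB2* were not called (log2 ratio 0.22 ± 0.15 and -0.00 ± 0.10, adjusted p = 0.338 and 0.99), nor was *wb* locus 1 (0.20 ± 0.09, adjusted p = 0.158).

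Heat lowered *Mmp2* locus 2, to 5.28, 1.67, 0.998, 0.647 and 0.268, against 10.9, 6.41, 5.69, 4.92 and 1.19 in unstressed flies (log2 ratio -1.35 ± 0.19, adjusted p = 0.00171). It was lower in 5 of 5 genotypes, and the order of genotypes stayed the same, with *Dg*-labelled flies highest and control lowest in both conditions. *Fas3* locus 2 fell to 0.924, 0.389, 0.321, 0.305 and 1.19, against 3.37, 3.46, 8.29, 5.15 and 27.1 in unstressed flies, with no overlap (log2 ratio -2.32 ± 0.43, adjusted p = 0.00593). The main *Fas3* row did not follow (-0.02 ± 0.12 on the log2 scale), while *Fas3* locus 8 rose to 0.978, 1.8, 0.372, 0.358 and 0.749, against 0.0539, 0.576, 0, 0.137 and 0.411 (adjusted p = 0.0129), higher in each genotype but overlapping. Of the *ttv* rows, locus 3 rose to 4.29, 3.39, 2.42, 1.2 and 1.26, against 0.992, 1.47, 0.843, 0.725 and 1.08 (log2 ratio 0.72 ± 0.17, adjusted p = 0.0149), and locus 2 fell (log2 ratio -0.45 ± 0.10, adjusted p = 0.0104). *dlp* locus 2 was called higher under heat, with 3.9, 0.0668, 4.72, 0.053 and 3.08 under heat, against 1.2, 0, 1.22, 0.0237 and 1.17 unstressed, a rise seen in the 3 genotypes in which the row is expressed (not called without the control, the *Dg* or the *Syn1* libraries, adjusted p up to 0.194). *Pxn* locus 2 was called higher too (log2 ratio 0.54 ± 0.17, not called without the control, the *Dys*, the *Syn1* or the *Nos* libraries, adjusted p up to 0.173). The other called rows (*Mmp2* locus 3, *dally* loci 3 and 5 and *trol* locus 5) averaged close to 1 FPKM or less in both conditions and each lost its call when 1 of several genotypes was left out. The collagen IV genes were not called under heat (log2 ratio 0.04 ± 0.25 for *Cg25C* and -0.00 ± 0.09 for *vkg* locus 1), nor were *rhea* locus 1, *Sdc* locus 1 or *Timp*. Of the 18 calls, 10 held whichever genotype was left out.

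Metabolic stress changed 3 of the 87 rows (3.45%, against 2.93% of all rows), all higher, where 2.57% of all rows were called higher and 0.357% lower. The 2-fold test called 0 of the 87, beside 0.783% of all rows. *scb* had 17.5, 14.9, 12.4, 21.1 and 14.9 on yeast paste, against 7.62, 6.25, 12.9, 10.2 and 9.59 in unstressed flies, higher in all genotypes but *Syn1* (log2 ratio 0.75 ± 0.17, adjusted p = 0.0682). *Fas3* locus 1 had 13.8, 19.2, 13.5, 16.2 and 12.6, against 7.78, 11.1, 12.5, 11.1 and 11.5, with every stressed library above every unstressed one (log2 ratio 0.44 ± 0.12, adjusted p = 0.0984). *wb* locus 6 had 0.917, 0.654, 0.393, 0.975 and 1.45, against 0.334, 0.253, 0.248, 0.196 and 0.335 (log2 ratio 0.54 ± 0.12, adjusted p = 0.0544). None of the 3 kept its call without the control, the *Dg*, the *Dys* or the *Nos* libraries (adjusted p up to 0.384), and without *Syn1* all 3 were called. *Sdc* locus 1 lay just outside the threshold, with 23.1, 17.3, 21.4, 33.1 and 33.1 on yeast paste, against 16.4, 15.4, 18.9, 25.5 and 20.6 unstressed, higher in 5 of 5 genotypes (log2 ratio 0.36 ± 0.10, adjusted p = 0.112), and the sum of the *Sdc* rows was called (log2 ratio 0.39 ± 0.08, adjusted p = 0.0367). Hemocyte markers summed to 22.4 to 31.3 FPKM under metabolic stress and 9.24 to 23.3 in unstressed libraries, and their part in these rows was not tested. No row was called under both stresses.

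**Figure D5:**
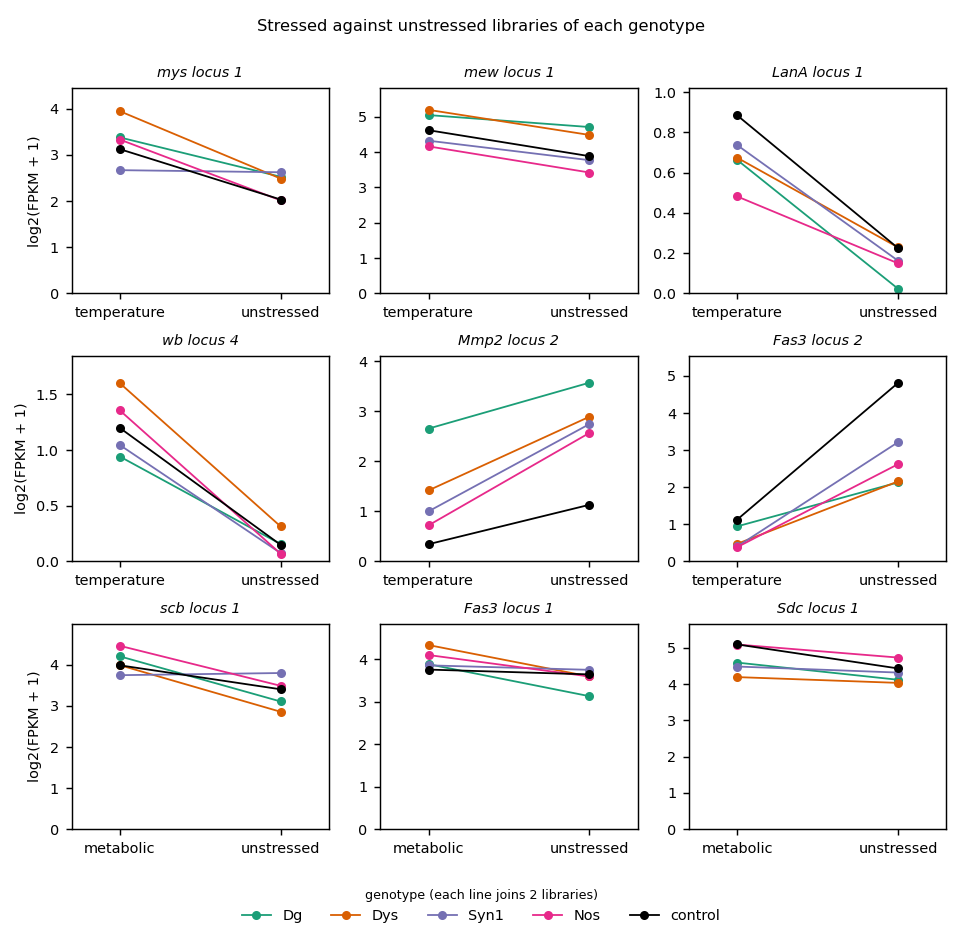
log2(FPKM + 1) (y axis, from 0) of 9 rows in the stressed (left) and unstressed (right) library of each genotype (line colour); the upper 6 panels show temperature stress and the lower 3 metabolic stress. *mys*, *mew*, *LanA* and *wb* locus 4 are higher and *Mmp2* locus 2 and *Fas3* locus 2 lower under temperature stress in each of the 5 genotypes, and *scb* is higher under metabolic stress in 4 of 5.

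Whether mutants responded to stress differently from control was tested by a term for mutant by stress, with control represented by 1 library per condition. Limma called 0 of the 87 rows for temperature stress and 0 for metabolic stress, beside 0.0% of all rows for each. At an unadjusted p under 0.05 there were 5 and 2 of the 87, beside 3.7% and 3.77% of all rows. The 2-fold test called 2 and 0, beside 0.271% and 0.415% of all rows. The largest differences were at *Pxn* locus 1, where the log2 ratio of heated to unstressed flies was -0.15 as a mean of the mutants and -2.01 in control (difference 1.86 ± 0.44, adjusted p = 0.715), at *Fas3* locus 2 (-1.98 in mutants and -3.69 in control, adjusted p = 0.998) and at *Fas3* locus 3 (0.33 in mutants and -1.33 in control, adjusted p = 0.715). *trol* locus 1 had a log2 ratio of 0.02 under heat in mutants and -0.66 in control, and *Vinc* locus 2 one of 0.14 in mutants and 0.95 in control, both with an unadjusted p under 0.05 (0.0459 and 0.015) and an adjusted p near 1. Each rests on the single control library under heat.

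A further 38 genes of the matrix, integrin adhesion, cell junctions, heparan sulfate synthesis and matrix proteases that were not on the list have 109 rows. In *Dg*-labelled flies 10 of these rows were called higher and 7 lower, in *Dys* mutants 28 were higher and 19 lower, in *Syn1* mutants 7 higher and 6 lower, and in *Nos* mutants 6 higher and 2 lower, beside the shares of all rows given above. *PH4alphaEFB*, the prolyl hydroxylase that matures collagen chains, fell in *Dg*-labelled and *Dys* flies, with 5, 6.71 and 9.88 in *Dg*-labelled and 6.96, 11 and 9.49 in *Dys* flies, against 21.2, 17.7 and 23.2 in control (log2 ratio -1.44 ± 0.18 and -1.11 ± 0.18, adjusted p = 0.000716 and 0.00204). *Syn1* flies had 11.6, 17.3 and 12.8 and *Nos* flies 12.7, 15.8 and 17.05. These also lay below every control library, though the row was called in neither. Of the 14 rows of integrin adhesion genes, 7 were called lower in *Dys* and 0 higher, beside 21.6% of all rows lower and 20.3% higher. Among the 7 were the main row of *Zasp52*, a linker of integrins and Z-discs, with 161, 109.5 and 192 in *Dys*, against 322, 162 and 321 in control (adjusted p = 0.0011), and *Pax*, the fly paxillin, with 161, 115 and 165, against 236, 142 and 267. *Pax* was called lower in *Dg*-labelled flies too, with 140, 101.5 and 196 (log2 ratio -0.56 ± 0.16, adjusted p = 0.0439). *Zasp52* and *Pax* are strongly expressed in muscle. The muscle markers given above were lower in *Dys* as well, while 0 of their 6 rows were called in *Dg*-labelled flies, and a link was not tested. Under temperature stress 14 of the 109 rows were called higher and 24 lower, beside 13.8% of all rows higher and 12.3% lower. The main row of *Zasp52* had 151, 109.5, 163, 219 and 162 under heat, against 230.4, 161, 289, 316 and 322 in unstressed flies (genotypes ordered as above, adjusted p = 0.00104). A second *Zasp52* row went the other way, with 49.6, 41.4, 23.8, 30.7 and 35.5 under heat, against 28.9, 28.8, 16.9, 17.7 and 23.7 in unstressed flies (log2 ratio 0.61 ± 0.13, adjusted p = 0.011). Under metabolic stress 0 of the 109 rows were called higher and 1 lower, beside 2.57% of all rows higher and 0.357% lower. The called row was *Tig*, the integrin ligand tiggrin, which fell to 1.28, 1.5, 1.73, 1.75 and 1.2, against 2.11, 2.73, 4.35, 5.29 and 2.39 unstressed (log2 ratio -0.76 ± 0.12, adjusted p = 0.0164). These genes were picked for this list with earlier results of the series known, and the 4 singled out here after their values were seen.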

How the data were processed

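The authors deposited 1 table of FPKM values for each of 15 libraries of whole flies, normalised to transcript length and library size. The program, genome build and annotation behind these tables are not given in the sources used here, so positions are printed as listed, and the methods' alignment with STAR and test with DESeq2 describe counts that were not used here. Of 14124 rows, 3348 without a gene name and 426 with a failed estimate were left out. Log2(FPKM + 1) was fitted in limma 3.58.1 (R 4.3.3) with genotype and condition as additive terms (8 residual degrees of freedom), or with a mutant by stress term (6), and p-values were adjusted over 10350 rows. Absolute depth is unknown, so no counting intervals are given. A check on simulated data gave every row the same independent noise and changed only well-expressed rows. It therefore cannot show how the test does on low rows or where the spread differs between rows.

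The members and gene lists were chosen with earlier results of these data known. By the rule for naming, the text gives the row of each gene with the highest mean FPKM, rows with a mean log2 ratio of at least 1, and for each comparison up to 10 called rows with the largest ratios. Other rows it names were chosen after their values were seen. Alternatives were another pseudocount (0.1), a minimum mean FPKM of 1, median-ratio scaling, an intensity-dependent prior, a 2-fold threshold test, sums per gene name, the unstressed libraries alone, and fits without each condition or genotype.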

Additional observations from a re-analysis of the deposited data

How the results depend on the processing

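When 1 condition was left out in turn, counts of called rows among the 87 ranged from 6 to 21 in *Dg*-labelled flies, 21 to 37 in *Dys*, 8 to 12 in *Syn1* and 8 to 15 in *Nos*, and 67 to 137 of 522 tests between mutants. When 1 genotype was left out, they ranged from 13 to 15 for temperature stress and from 0 to 4 for metabolic stress. A minimum mean FPKM of 1 left 16 calls in *Dg*-labelled flies, 7 in *Syn1*, 10 in *Nos* and 8 under temperature stress, from fewer rows tested. The 2-fold threshold test (unadjusted p under 0.1) gave 4 in *Dg*-labelled flies, 11 in *Dys*, 6 in *Syn1*, 8 in *Nos*, 2 for temperature stress, 0 for metabolic stress, 27 between mutants, and 2 for the temperature response of mutants against that of control (*Fas3* locus 3 and *Pxn* locus 1). FPKM summed per gene name, which gives 1 value in place of several, gave 9 in *Dg*-labelled flies, 23 in *Dys*, 4 in *Syn1*, 5 in *Nos*, 9 for temperature stress and 84 between mutants. A pseudocount of 0.1 left 1 call for metabolic stress. Among the 115 called results of single rows none changed direction under a setting that tested it, all 115 stayed called under median-ratio scaling, 113 with the intensity-dependent prior and 106 with the pseudocount of 0.1. In the unstressed libraries alone, a ratio of 1 library to 1 with no test, none of the 94 genotype calls was reversed. *kuz* locus 4 in *Dys* was at 0 in both unstressed libraries and so had no direction there. Of the 94, 19 moved by more than the SD of their 3 ratios. Without the unstressed libraries 42 of 94 genotype calls held, without temperature stress 71 and without metabolic stress 56. These fits have 4 residual degrees of freedom in place of 8. Rows under 1 FPKM are limited by depth, which is unknown. No paired analysis was possible because the labels give no replicate numbers to pair by, beyond the genotype and condition terms of the fit, which already compare mutants with control within conditions.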
